A study of Danio rerio with 26 samples.

Results

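At 3.75 nM rotenone, the skin of 1-year zebrafish differed between 2 runs of the numbers in the fish's titles: fish 164 to 167 (the low run, n = 4) and fish 189 to 193 (the high run, n = 5). The 9 fish, out of 26 in the series, are defined by concentration, age and title number, and this grouping was taken up with earlier results of these data known. The labels do not say what a number stands for, so handling, housing, day of sampling and any other difference between the runs cannot be told apart. All 9 fish were males of the strain AB JxTu, and rotenone, an inhibitor of mitochondrial complex I, was given to every fish of the series, so no fish is an untreated baseline. Used beside them were 1-year AB JxTu males at 37.5 nM (low run fish 173 to 177, n = 4, and high run fish 198 to 202, n = 5) and 3-year AB JxTu Tg(flk:mCherry) males at 37.5 nM (fish 178 to 181 and 194 to 197, n = 4 each). Total RNA of the skin was sequenced as 1 library per fish.

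Zebrafish skin is a living, uncornified epidermis of keratinocytes with mucous cells and ionocytes, lying on a collagen-rich dermis that carries bony scales and pigment cells. Ribosomes are assembled in the nucleolus, secreted and membrane proteins are folded in the endoplasmic reticulum (ER), and most mitochondrial proteins are made in the cytosol, imported and folded inside the organelle. When nutrients or insulin signals are scarce, FoxO transcription factors switch on ubiquitin ligases and autophagy genes, as described best in muscle and in mammals.

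The libraries held between 26161555 and 28481706 counts assigned to genes. The epidermal keratin genes krt4 and krt5 were among the abundant genes of every fish, with krt5 between 17286 and 40661 CPM (a gene's counts relative to the scaled library total), and the dermal collagen gene col1a1a lay between 741 and 12365 CPM. Genes of the mitochondrial genome took 6.16 ± 0.744% of the counts in the low run (SD, n = 4) and 9.41 ± 2.37% in the high run (n = 5). The runs did not overlap in that share, an exact two-sided permutation test gave the smallest p that 4 against 5 fish allow (0.0159), and after adjustment over 4 library measures p was 0.0635. The first principal component held 29% of the variance and set apart fish 190 (score 104.9) and fish 192 (60.3) from the others, which lay between -53.1 and 10.3. Since the RNA comes from whole skin, fewer cells of a type and less RNA per cell cannot be told apart in any result that follows.

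Called genes of the lists for ribosome assembly (42 of 51), ER folding (18 of 35), secretion (33 of 75) and keratinocytes (14 of 71) were all lower in the high run. Those of the lists for fasting (16 of 60), autophagy (14 of 61), dermal matrix (7 of 95) and scales (6 of 45) were all higher, and the secretion, fasting and autophagy lists were made after the values were seen. Without fish 164 these 8 counts were 8, 10, 2, 5, 1, 0, 0 and 1. In that fit 0.194% of all genes were called higher and 0.775% lower. By edgeR's quasi-likelihood F test over 19191 genes, 1581 (8.24%) passed a Benjamini-Hochberg threshold of 0.05, with 552 (2.88%) higher in the high run and 1029 (5.36%) lower. Of the called genes, 474 higher and 1012 lower ones had runs that did not overlap, which held for 5.49% and 9.22% of all genes tested. More than 2-fold changes made up 327 of the higher and 326 of the lower genes, and the median log2 fold change (high minus low run) of all genes was 0.09. With 4 and 5 fish the count leaned on single fish: it was 190 without fish 164, 401 without 165, 353 without 166, 533 without 167, 609 without 193 and 2793 without 189. The shares called higher and lower were 0.554% and 1.49% without fish 165, 0.41% and 1.4% without 166, and 0.82% and 1.89% without 167. They were 6.28% and 8.44% without 189, 2.46% and 4.16% without 190, and 1.98% and 4.94% without 191. Without 192 they were 1.94% and 4.14%, and without 193 0.975% and 2.23%. List counts below stand against these shares. Without fish 190 and 192 together, a choice made after the data were seen, the count was 548 (2.87%, with 1.04% higher and 1.83% lower), and 1577 of the 1581 genes kept their direction. DESeq2 called 3313 genes. In all 9 fits that left out 1 fish, 34 higher and 140 lower genes were called.

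**Figure D1:**
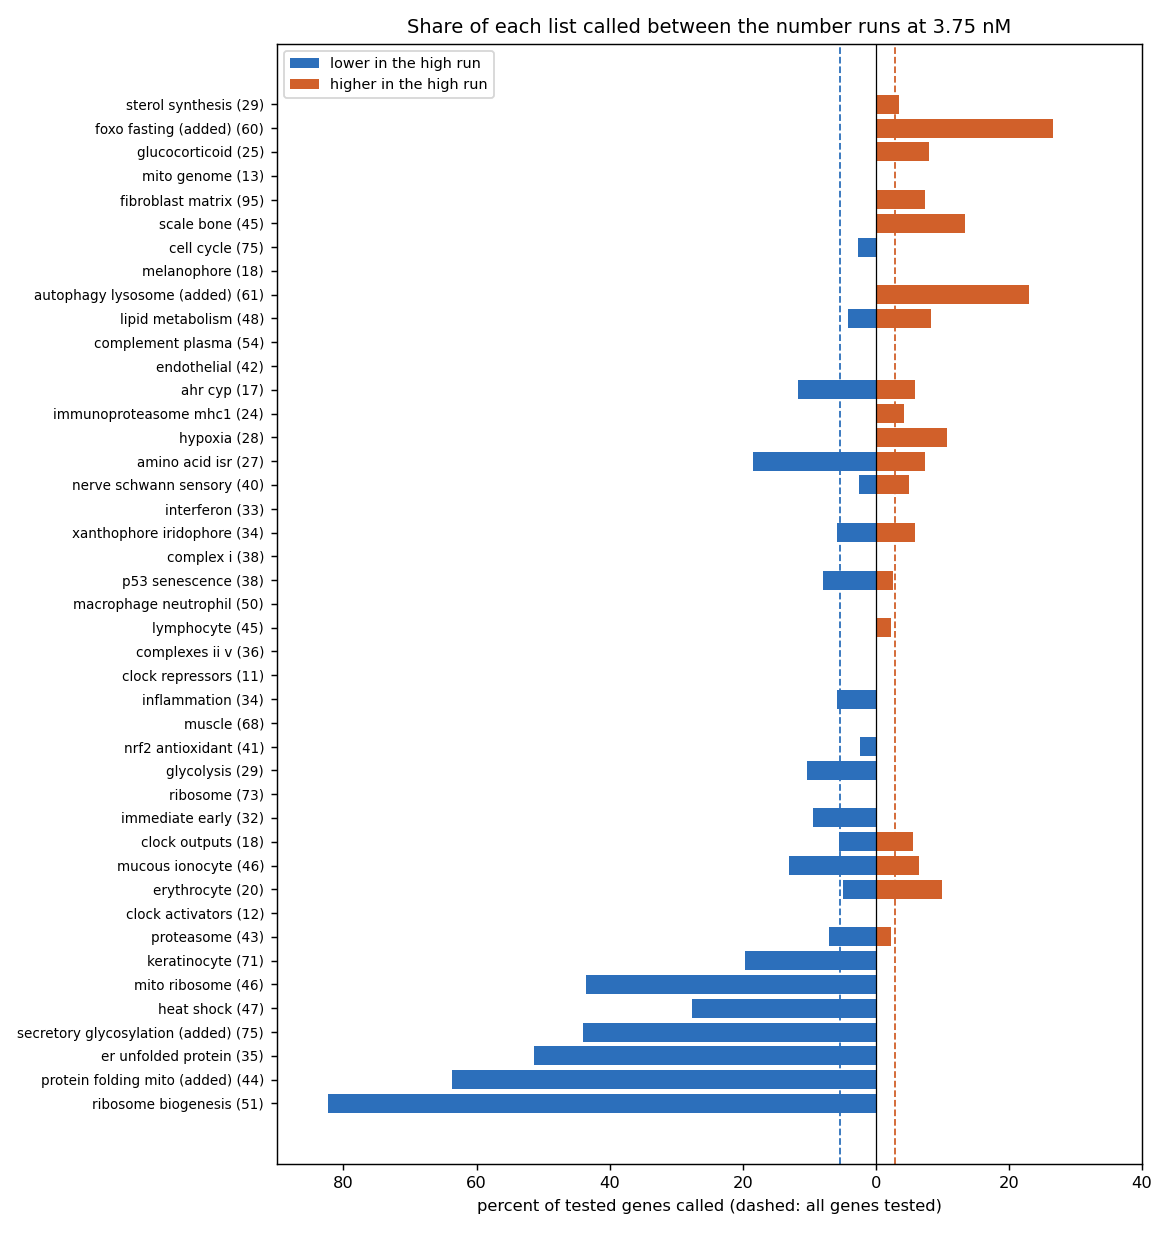
Percent of the tested genes of each gene list that were called lower (blue, to the left) or higher (orange, to the right) in the high run at 3.75 nM, with the number of tested genes in brackets and the shares over all genes tested as dashed lines. Ribosome biogenesis reached 42 of 51 genes lower, while the lists of cytosolic ribosomal proteins, complex I and muscle had no called gene.

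Ribosome assembly fell most widely: 42 of 51 tested genes were lower in the high run, none was higher, and 50 of 51 had a negative log2 fold change, with a median of -0.84. npm1a, which encodes the nucleolar chaperone nucleophosmin, stood at 285, 264, 321 and 261 CPM in fish 164 to 167 and at 152, 120.1, 77.3, 82.5 and 87.0 CPM in fish 189 to 193. The runs did not overlap, fish 189 was the highest of the high run, and the gene fell by 1.45 ± 0.21 on the log2 scale (SE, adjusted p = 0.0114). NOP10, a subunit of the H/ACA particles that guide pseudouridylation of ribosomal RNA, fell by 1.24 ± 0.18, from 29.5 ± 1.94 to 12.5 ± 3.13 CPM (SD). The ribosome assembly factors nop16 and WDR12 (-1.28 ± 0.20 and -1.22 ± 0.20) and nucleolin, ncl (-0.70 ± 0.12), were also called in all 9 fits that left out 1 fish. FBL, the methyltransferase fibrillarin of the box C/D particles, went from 156 ± 19.5 to 66.5 ± 18.6 CPM, a change of -1.23 ± 0.21 that was called with all fish and lost without fish 164 (adjusted p = 0.0503). The count of 42 became 8 without fish 164, 16 without 165, 9 without 166, 20 without 167, 21 without 193 and 15 without fish 190 and 192 together, while the median stayed between -0.95 and -0.76 when 1 fish was left out.

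The finished ribosome's own protein genes did not move in step: none of 73 cytosolic ribosomal protein genes was called, although all 73 had a negative value, with a median of -0.20. ODC1, ornithine decarboxylase, the first enzyme of polyamine synthesis, stood at 206, 190.0, 307 and 135 CPM in the low run and at 43.4, 33.0, 50.4, 35.3 and 28.3 CPM in the high run. Every low-run fish was above every high-run fish, by more than 2-fold, and ODC1 fell by 2.46 ± 0.25 (adjusted p = 0.00446). MYC (ENSDARG00000007241), the transcription factor known for driving both ODC1 and ribosome genes in mammals, fell by 1.07 ± 0.23 (adjusted p = 0.0264), and CCND1, cyclin D1, by 0.96 ± 0.19 (0.0194). Both of these calls were lost without any 1 of fish 164, 165, 166, 167 or 193, with adjusted p up to 0.0766 for MYC and 0.0640 for CCND1.

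**Figure D2:**
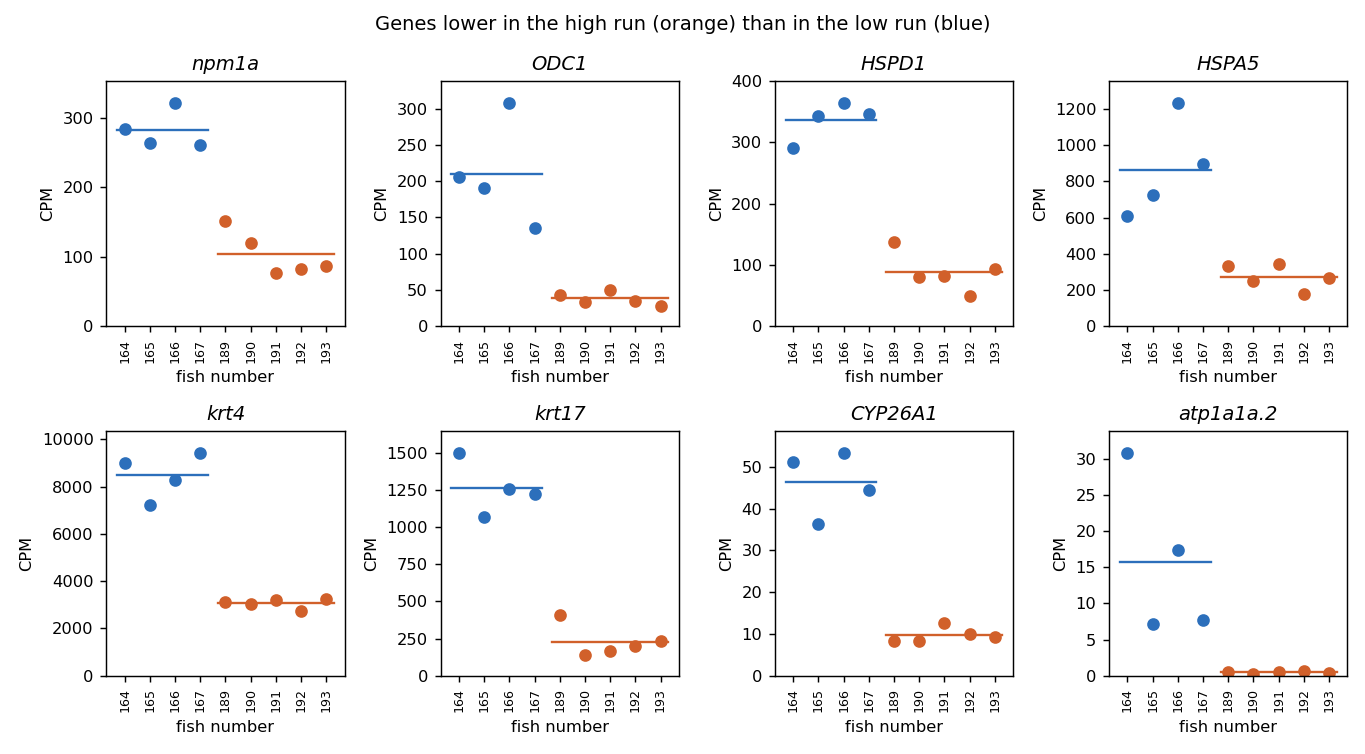
CPM of 8 genes that were lower in the high run, 1 point per fish in the order of the fish numbers, with blue points for the low run, orange points for the high run and a line at each run's mean. In each of the 8 panels the 4 low-run fish lie above all 5 high-run fish.

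Mitochondria's protein-making and import machinery fell, while the respiratory chain did not. Of 46 mitochondrial ribosomal protein genes, 20 were lower and all 46 were negative, with a median of -0.52. Among genes of mitochondrial import, folding and translation, a list put together after the values were seen, 28 of 44 were lower (median -0.78). HSPD1, the chaperonin Hsp60 of the mitochondrial matrix, stood at 292, 344, 364 and 346 CPM in the low run and at 137, 80.4, 82.2, 48.3 and 92.9 CPM in the high run. Its values did not overlap, fish 192 was lowest, and it fell by 1.93 ± 0.25 (adjusted p = 0.00966). Its partner HSPE1 fell by 1.49 ± 0.17, from 114 ± 8.95 to 40.6 ± 8.98 CPM, the elongation factor TUFM by 0.92 ± 0.12, and MRPL12, a protein of the large subunit, by 0.93 ± 0.14. None of 38 complex I genes and none of 36 genes of complexes II to V was called (medians 0.12 and 0.06). The complex I subunit gene NDUFS1 lay at 215, 226, 219.6 and 211 CPM in the low run and at 276, 164, 182, 390.1 and 209.9 CPM in the high run, so the runs overlapped and fish 192 was highest. All 13 genes of the mitochondrial genome were positive (median 0.57) and none was called. MT-ND1, for one, was at 4181 CPM in fish 189 and 4512 CPM in fish 192 against 1857 to 2520.1 CPM in the other fish. Counts of the mitochondrial ribosome depended on single fish: 1 without fish 164, 3 without 165, 2 without 166, 4 without 167, 11 without 190, 13 without 191, 6 without 193 and 4 without fish 190 and 192 together. For import and folding they were 9, 13, 15, 18 and 17 without fish 164, 165, 166, 167 and 193, and 14 without fish 190 and 192.

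Chaperones of the ER were lower in the high run: 18 of 35 tested genes of the unfolded protein response fell and none rose (median -0.65). HSPA5, the central ER chaperone BiP, stood at 611, 725, 1232 and 894 CPM in the low run and at 331, 247, 345, 175 and 265 CPM in the high run. The runs did not overlap, and HSPA5 fell by 1.67 ± 0.26 (adjusted p = 0.0114). MANF, a small ER-stress protein that is also secreted, went from 125 ± 19 to 32.7 ± 11.6 CPM (-1.93 ± 0.26), and HSP90B1, the ER form of Hsp90, from 772 ± 201 to 219 ± 61.2 CPM (-1.82 ± 0.25). The disulfide isomerase gene PDIA4 (-2.0 ± 0.31), the co-chaperone gene DNAJB11 (-1.37 ± 0.17) and the calreticulin gene calr3b (-1.74 ± 0.21) fell as well. All 6 of these calls held when any 1 fish was left out. The number of lower genes on the list was 10, 11 and 11 without fish 164, 166 and 167, and 11 without fish 190 and 192 together. Without fish 189, 18 were lower and 1 higher.

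Genes of secretion were lower as well. Of 75 genes of translocation, glycosylation and vesicle transport, listed after the values were seen, 33 fell and none rose (median -0.56). Among them MOGS, the glucosidase that starts trimming of N-glycans, fell by 1.3 ± 0.20, from 40 ± 5.36 to 16.2 ± 3.77 CPM, and SRP68, a subunit of the signal recognition particle, by 0.92 ± 0.15. PGM3, an enzyme of UDP-N-acetylglucosamine synthesis, fell by 1.83 ± 0.31, a call lost without fish 164 (adjusted p = 0.0506). This count was 2, 7, 11, 9 and 14 without fish 164, 165, 166, 167 and 193, and 9 without fish 190 and 192.

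Cytosolic heat shock genes took part unevenly. The heat shock list had 13 of 47 genes lower and none higher (median -0.56), but 5 of the 13 (HSPA5, HSP90B1, HSPD1, HSPE1 and HSPA9) encode ER or mitochondrial chaperones. Of the others, HSPA4 (ENSDARG00000018989), a nucleotide exchange factor of Hsp70, fell by 0.83 ± 0.12 and PTGES3 (ENSDARG00000089626), the Hsp90 co-chaperone p23, by 1.29 ± 0.21. A further PTGES3 identifier (ENSDARG00000037284) fell by 0.62 ± 0.15, a call lost without any of fish 164, 165, 166, 167, 190, 192 or 193, and the call of HSPA9 was lost without any of fish 164, 165, 166, 167 or 193. The stress-inducible gene hsp70l was near 1 CPM in every fish, between 0.339 and 1.71 CPM, and did not pass (-0.84 ± 0.37, adjusted p = 0.188). hsp90aa1.1, an Hsp90 gene known for muscle expression in zebrafish, was at 50.3, 52.7, 98.4 and 81.4 CPM in the low run and at 37.7, 13.4, 10.9, 47.3 and 17.6 CPM in the high run. Its runs did not overlap, yet the spread among fish left it short of the threshold (-1.48 ± 0.45, adjusted p = 0.0711). Without fish 164 the list had 6 lower genes, without 166 and 167 it had 8 each, and without fish 190 and 192 together 9.

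Of 60 genes linked to FoxO and fasting, a list put together after the values were seen, 16 rose and none fell (median 0.79). trim63a, which encodes the ubiquitin ligase MuRF1, known for breaking down muscle protein, stood at 2.61, 3.39, 3.59 and 3.02 CPM in the low run and at 14.6, 11.7, 34, 62.6 and 30.9 CPM in the high run. The runs did not overlap, fish 192 was highest, and trim63a rose by 3.28 ± 0.49 (adjusted p = 0.0114), a call that held when any 1 fish was left out. FBXO32, the ligase atrogin-1, was at 6.18, 3.54, 2.08 and 3.34 CPM in the low run and at 6.94, 30.5, 42.1, 119 and 63.6 CPM in the high run. Fish 189 barely exceeded the highest low-run fish, and the call (3.79 ± 0.74, adjusted p = 0.0182) was lost without any 1 of fish 164 to 167 (up to 0.0673). Both ligases are best known from muscle. None of the 68 tested genes of the muscle marker list was called (median -0.05), but the list leaned on single fish. Its median was -0.81 without fish 192, with 4 genes called lower, and 0.53 without fish 166. Fish 192, the highest for both ligases, also had the highest mean of that list (7.75 log2 CPM). The part of muscle content in the gains of the ligases was not tested. The summed level of the muscle list was 15034 to 64239 CPM in the low run and 9002 to 64041.5 CPM in the high run. A fit with the mean of that list as a term called 965 genes higher, against 552 without it. The values of both ligases in that fit are not given here.

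Autophagy genes showed a smaller shift. Of 61 autophagy and lysosome genes, also listed after the values were seen, 14 rose and none fell (median 0.38). ulk1a, a copy of the kinase that starts autophagy, stood at 13.5, 17.1, 9.68 and 10.4 CPM in the low run and at 18.3, 47.9, 85.8, 47.1 and 51.5 CPM in the high run. The runs did not overlap, but fish 189 lay next to the low run. ulk1a rose by 1.98 ± 0.39 (adjusted p = 0.0187), MAP1LC3A, which coats autophagosome membranes, by 1.2 ± 0.23, and ATG14, a subunit of the lipid kinase that starts the autophagosome, by 1.41 ± 0.30. The first of these calls and that of MAP1LC3A were lost without fish 164, 166 or 167 (adjusted p up to 0.0630 and 0.0592), and that of ATG14 without any of fish 164, 165, 166, 167 or 193 (up to 0.0677). The count for FoxO and fasting was 1, 4, 2, 3 and 6 without fish 164, 165, 166, 167 and 193, and 28 without fish 189. For autophagy it was 0, 2, 1, 2, 7 and 4 without fish 164, 165, 166, 167, 192 and 193. Without fish 189, 1 gene of each of these lists was called lower. Without fish 190 and 192 together the counts were 7 and 1.

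PSME4 (ENSDARG00000087911), which encodes the proteasome activator PA200, rose by 3.3 ± 0.71 (adjusted p = 0.0254), while 38 of 43 proteasome genes were negative (median -0.31), 3 were called lower and PSME4 alone was called higher. The lower calls numbered 0, 0, 1, 1 and 6 without fish 164, 165, 166, 193 and 191. Its level was 5.41, 3.36, 3.55 and 2.34 CPM in the low run and 8.16, 36.9, 13.1, 96.5 and 26.0 CPM in the high run. Fish 192 was highest, and without it the change was 2.53. The call was lost without any of fish 164, 165, 166, 167 or 193 (adjusted p up to 0.0824). A further identifier carries the symbol PSME4 (ENSDARG00000018742) and was not called (0.11 ± 0.14), and reads may be split between the copies.

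Fish 189 divided the high run. For the folding, ribosome and keratin genes it lay with the other 4 high-run fish, but for several genes that glucocorticoids or fasting are known to induce it lay with the low run or below it. PDK2 (ENSDARG00000020876), a kinase that holds back pyruvate oxidation, stood at 22.4, 23.5, 17.1 and 14.2 CPM in the low run, at 17.1 CPM in fish 189 and at 106, 159.9, 157 and 123 CPM in fish 190 to 193. HBP1, a repressor of cell cycle genes and a known FoxO target, was at 13.2, 10.7, 9.60 and 10.9 CPM in the low run, at 10.22 CPM in fish 189 and at 61.6, 106, 74.9 and 71.6 CPM in the other high-run fish. FKBP5, an Hsp90 co-chaperone and a classic glucocorticoid target, was at 810.3, 680.3, 1208 and 549.7 CPM in the low run, at 67.8 CPM in fish 189 and at 1162, 1981, 1394 and 2139 CPM in fish 190 to 193. In all 3 genes the runs overlap through fish 189 (in FKBP5 also through fish 166, above fish 190), and FKBP5 did not pass (0.73 ± 0.70, adjusted p = 0.537). PDK2 and HBP1 rose by 2.54 ± 0.54 and 2.54 ± 0.53, calls lost without any of fish 164, 165, 166, 167 or 193 (up to 0.0769 and 0.0758). Of the 25 glucocorticoid-response genes 2 were higher, and without fish 189 the count was 7, against a background of 6.28% higher genes in that fit. Without any 1 of fish 164 to 167 or fish 193 it was 0, and without fish 191 or 192 it was 1. The mean of the list was 4.06 log2 CPM in fish 189, the lowest of the 9 fish, 4.71 to 5.17 in the low run and 5.59 to 5.92 in fish 190 to 193.

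**Figure D3:**
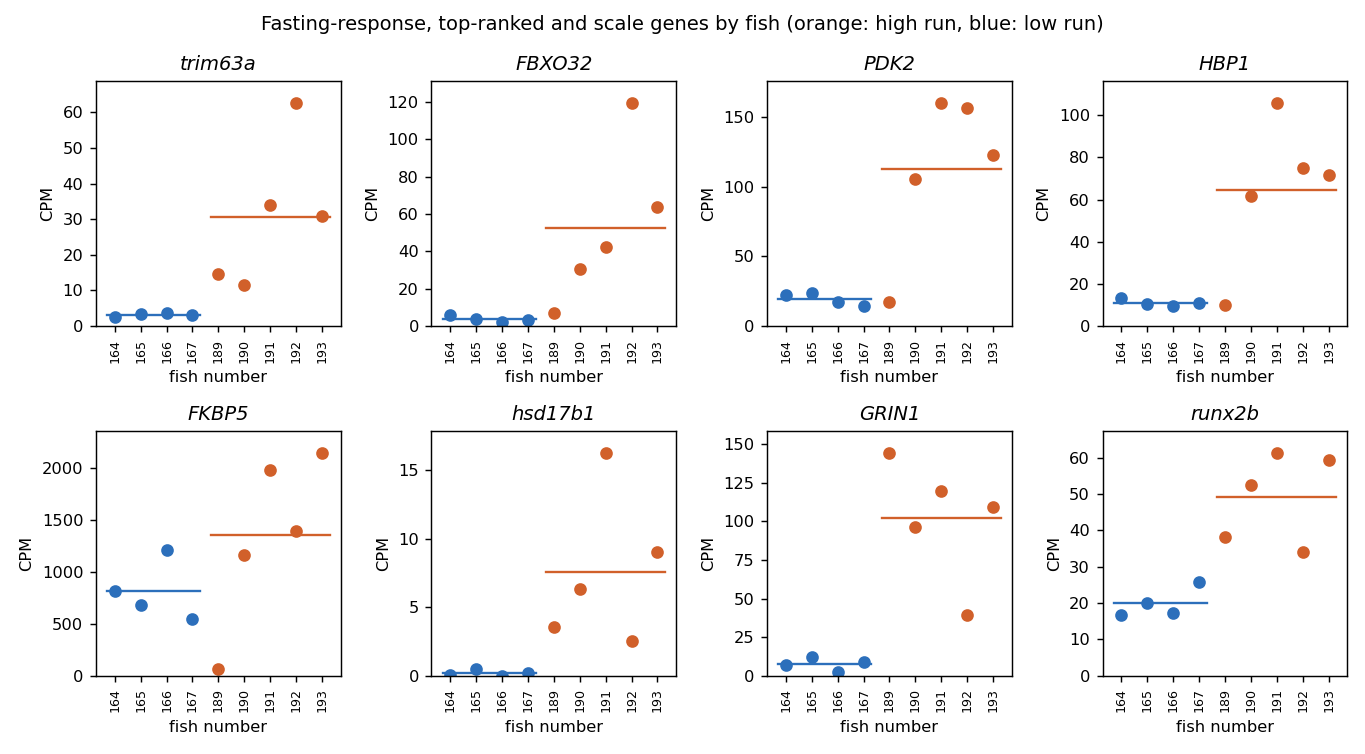
CPM of 8 genes by fish, with blue points for the low run, orange points for the high run and a line at each run's mean. Fish 189 lies at the level of the low run for PDK2 and HBP1 and below every other fish for FKBP5 (67.8 CPM), but above the other high-run fish for GRIN1 (144 CPM).

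**Figure D4:**
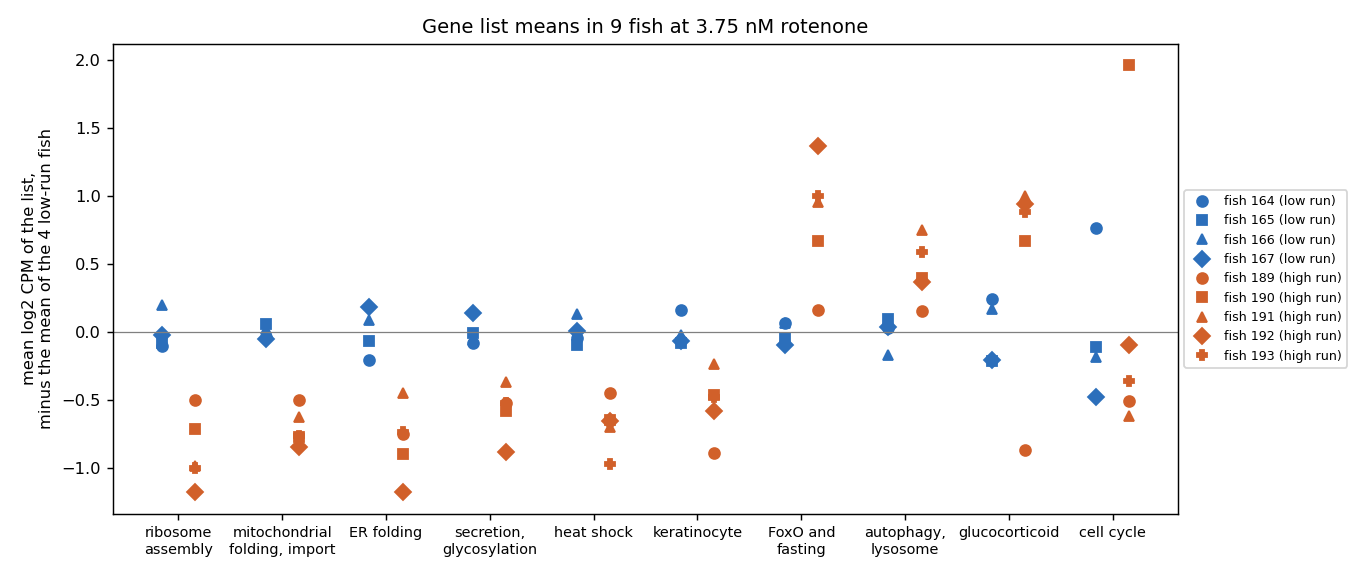
Mean log2 CPM of the tested genes of 10 gene lists in each of the 9 fish, after subtraction of the mean of the 4 low-run fish, with 1 symbol per fish (blue, low run; orange, high run). The runs separate for the first 8 lists, fish 189 is lowest for the glucocorticoid list, and fish 190 is highest for the cell cycle list. Of those 8, the mitochondrial folding, secretion, FoxO and autophagy lists were made after the values were seen, so their separation is a description.

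Keratin and other genes of the surface epidermis were lower in the high run: of 71 keratinocyte genes 14 fell and none rose (median -0.36). krt4, a keratin of the outermost cell layer, stood at 9002, 7199, 8284 and 9418 CPM in the low run and at 3131, 3029.9, 3197, 2726 and 3226 CPM in the high run. The high-run fish lay within a narrow band well below the lowest low-run fish, and krt4 fell by 1.47 ± 0.14 (adjusted p = 0.00343). krt17, a keratin known in mammals from injured and growing epidermis, stood at 1498, 1064, 1253 and 1222 CPM in the low run and at 406, 142, 168, 199 and 232 CPM in the high run, a fall of 2.46 ± 0.30. krt1-19d fell by 2.28 ± 0.21, from 732 ± 84.1 to 150.4 ± 35.4 CPM, and the calcium-binding annexin genes anxa1b and anxa1c by 2.13 ± 0.25 and 1.8 ± 0.26. krt5, a keratin of the basal layer, fell less, by 0.76 ± 0.17 (adjusted p = 0.0264), a call lost without any 1 of fish 164 to 167 (up to 0.0833). The number of lower genes was 5, 8, 7, 8 and 9 without fish 164, 165, 166, 167 and 193, and 6 without fish 190 and 192 together. Without fish 189, 15 were lower and 3 higher.

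CYP26A1, the enzyme that clears retinoic acid, stood at 51.2, 36.2, 53.3 and 44.5 CPM in the low run and at 8.23, 8.26, 12.5, 9.98 and 9.35 CPM in the high run. The runs were far apart, and CYP26A1 fell by 2.26 ± 0.18 (adjusted p = 0.00307). foxq1b, a forkhead transcription factor gene known as a target of the aryl hydrocarbon receptor in zebrafish, fell by 2.4 ± 0.34, from 105 ± 32.3 to 19.9 ± 9.21 CPM. CYP1A1, the detoxifying enzyme best known as a target of that receptor, did not move with it: it was at 31.9, 21.2, 27.0 and 35.11 CPM in the low run and at 16.1, 27.3, 91.1, 32.7 and 18.1 CPM in the high run, with fish 191 highest and the runs overlapping (0.36 ± 0.48, adjusted p = 0.668). The glutathione transferase gene GSTM3 (ENSDARG00000088116) fell by 2.23 ± 0.40.

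Ionocyte genes went in both directions. Of 46 mucous cell and ionocyte genes, 6 fell and 3 rose (median -0.22). atp1a1a.2, an alpha subunit gene of the sodium pump, stood at 30.8, 7.16, 17.4 and 7.70 CPM in the low run and at 0.480, 0.300, 0.517, 0.716 and 0.375 CPM in the high run. Every high-run fish was below 1 CPM, and the fall of 5.04 ± 0.51 (adjusted p = 0.00414) was the largest among the named genes. slc12a10.2, the sodium-chloride cotransporter gene of a zebrafish ionocyte type, went from 9.37 ± 6.61 to 0.562 ± 0.384 CPM (-4.04 ± 0.72), and foxi3b, a forkhead gene that specifies ionocytes in zebrafish, from 5.90 ± 3.62 to 0.918 ± 0.444 CPM (-2.68 ± 0.53). Both are low genes: the call of slc12a10.2 was lost without fish 164 or 166 (adjusted p up to 0.0529) and that of foxi3b without fish 164, 166 or 193 (up to 0.0625). In the other direction, SLC26A4, the anion exchanger pendrin, was at 0.545, 1.47, 0.643 and 0.639 CPM in the low run and at 0.775, 6.93, 11.1, 2.52 and 10.06 CPM in the high run. Fish 189 again lay with the low run, and the call (2.92 ± 0.74, adjusted p = 0.0423) was lost without any of fish 164, 165, 166, 167, 190, 191 or 193 (up to 0.128). The lower genes numbered 2, 2 and 9 without fish 164, 166 and 189, and 4 without fish 165, 167 or 193. They numbered 3 without fish 190 and 192 together. The higher genes numbered 0 without fish 164, 165 or 166, 1 without fish 167, 190 or 193, and 2 without fish 191.

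Mucus genes did not share 1 direction. AGR2, a disulfide isomerase that mucin-secreting cells need, stood at 219, 299.5, 193 and 231 CPM in the low run and at 38.8, 72.9, 78.1, 54.9 and 86.7 CPM in the high run. The runs were far apart and AGR2 fell by 1.83 ± 0.24 (adjusted p = 0.00966). The gel-forming mucin gene muc5.1, by contrast, was at 23.8, 83.6, 52.5 and 74.6 CPM in the low run and at 83.1, 128, 107, 41.9 and 110.0 CPM in the high run, with overlap and no call (0.68 ± 0.40, adjusted p = 0.298).

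Dermal matrix and scale genes were higher in the high run, in smaller numbers. Of 95 fibroblast and matrix genes 7 rose and none fell (median 0.55), and of 45 scale and bone genes 6 rose and none fell (median 0.50). runx2b, a master regulator of bone-forming cells, stood at 16.6, 20, 17.4 and 25.9 CPM in the low run and at 38.3, 52.6, 61.3, 33.9 and 59.4 CPM in the high run. The runs did not overlap, and runx2b rose by 1.3 ± 0.22 (adjusted p = 0.0147, and 0.0548 without fish 164). LEF1, a transcription factor of Wnt signalling that marks growing scales, rose by 1.51 ± 0.28, from 7.56 ± 0.753 to 21.5 ± 7.93 CPM, a call lost without fish 164, 165 or 166 (up to 0.0617). The bone protein gene bglap, osteocalcin, was at 2.22, 0.566, 0.983 and 0.639 CPM in the low run and at 17.8, 9.90, 14.5, 9.11 and 1.98 CPM in the high run, where fish 193 lay with the low run. It rose by 3.27 ± 0.66, and by 3.86 without fish 164, and the call was lost without fish 165, 166 or 167 (up to 0.0698).

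The matrix itself varied more between fish. col1a1a, the main collagen of dermis and scale, was at 1489.9, 741, 3416 and 4557 CPM in the low run and at 12365, 8923, 5559, 9822 and 3464 CPM in the high run. Only fish 193 overlapped the low run, and the gene did not pass (1.65 ± 0.55, adjusted p = 0.0931). TIMP2 (ENSDARG00000061226), an inhibitor of matrix metalloproteinases, rose by 0.97 ± 0.19, from 172 ± 31.2 to 337 ± 63.1 CPM, a call lost without fish 164, 165 or 167 (up to 0.0592). The matrix count of 7 was 0 without fish 164 or 165, 1 without fish 166 or 193, 4, 3 and 2 without fish 167, 191 and 192, and 0 without fish 190 and 192 together. Without fish 189, 8 matrix genes were higher and 3 lower. Without fish 191, 1 matrix gene and 1 scale gene were lower. The scale count of 6 was 1 without fish 164, 165 or 166, 4 without fish 191, 3 without fish 193 and 1 without fish 190 and 192. The summed level of the keratinocyte list was 98391 to 120780.0 CPM in the low run and 57894 to 90974 CPM in the high run, and that of the fibroblast list 8928 to 27735 CPM and 22594 to 60769 CPM. The part of a shift between epidermis and dermis in these results was not tested.

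Large gains were also seen in 4 genes that belong to no list. hsd17b1, an enzyme that activates oestrogen, was at 0.0778, 0.490, 0 and 0.178 CPM in the low run and at 3.58, 6.30, 16.3, 2.52 and 9.04 CPM in the high run. It was close to off in the low run and rose by 5.3 ± 0.93 (adjusted p = 0.0147), or 6.37 without fish 165, and the call was lost without fish 164 (0.0562). col9a1b, a chain of the fibril-associated collagen IX, stood at 0.428, 1.92, 1.17 and 1.28 CPM in the low run and at 10.7, 9.70, 31.8, 11.3 and 30.6 CPM in the high run. GRIN1 (ENSDARG00000027828), a subunit of the NMDA glutamate receptor, stood at 7.20, 12, 2.27 and 8.73 CPM in the low run and at 144, 96.4, 119.8, 39.4 and 109 CPM in the high run. Neither overlapped between runs, and their gains of 3.96 ± 0.57 and 3.75 ± 0.52 (adjusted p = 0.0114 and 0.0112) held when any 1 fish was left out. KCNH4 (ENSDARG00000062565), a potassium channel gene, rose by 4.33 ± 1.03, or 6.62 without fish 165, and its call was lost without fish 164, 166, 167, 191 or 193 (up to 0.0936).

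Of 29 sterol synthesis genes 28 were positive (median 1.1), but only SCAP, the sterol sensor that escorts SREBP, was called (1.77 ± 0.39, adjusted p = 0.0278). It was at 46.9, 69.3, 49.4 and 83.0 CPM in the low run and at 72.0, 199, 349, 216 and 224 CPM in the high run, so that fish 189 lay within the low run, and the call was lost without any of fish 164, 165, 166, 167 or 193 (up to 0.0946). PHGDH, the first enzyme of serine synthesis, fell by 1.59 ± 0.28 (0.0553 without fish 164) and ASNS, asparagine synthetase, by 1.24 ± 0.23 (up to 0.0561 without fish 164 or 167), within a list of amino acid and stress response genes in which 5 of 27 fell and 2 rose. The fallers numbered 0, 2, 3, 2, 3 and 3 without fish 164, 165, 166, 167, 192 and 193, the risers 0 without each of those 6 fish, 1 without fish 191 and 6 without fish 189. Of 48 lipid metabolism genes 4 rose and 2 fell (median 0.36), and of 29 glycolysis genes 3 fell and none rose (median -0.20). Without any of fish 164, 165, 166, 167 or 193 all of these counts were 0. The lipid risers numbered 2 without fish 191, the lipid fallers 0 without fish 190 or 192, and the glycolysis fallers 1 without fish 190. CPT1B, an enzyme of fatty acid entry into mitochondria, rose by 1.95 ± 0.51 (adjusted p = 0.0457). Its level in fish 192 was 138 CPM against 28.6 to 41.6 CPM in the other high-run fish and 11.4 to 19.2 CPM in the low run, the change without that fish was 1.25, and the call was lost without any of fish 164, 165, 166, 167 or 193 (up to 0.133). gch2, a pteridine synthesis gene of yellow pigment cells, fell by 1.18 ± 0.15, from 27.2 ± 4.56 to 12 ± 1.15 CPM. Its list of yellow and iridescent pigment cell genes had 2 of 34 higher and 2 lower (median 0.13), and aox6 rose by 0.84 ± 0.18, a call lost without any 1 of fish 164 to 167. The lower calls on that list numbered 1 without any of fish 164, 165, 166, 167, 191 or 193 and 5 without fish 189. The higher calls numbered 0 without any 1 of fish 164 to 167 and 1 without fish 191 or 193.

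Immune, cell cycle and clock lists gave few calls, each lost in at least 3 of the 9 fits that left out 1 fish. The calls were CCND1 and BUB3 among 75 cell cycle genes (lower), PTGS2 (ENSDARG00000010276) and ccl34a.4 among 34 inflammation genes (lower), mhc2dab among 45 lymphocyte genes (higher), mhc1zda among 24 immunoproteasome and antigen presentation genes (higher), and HLF (lower) and BHLHE41 (higher) among 18 clock output genes. HLF, a transcription factor under clock control, lay between 4.71 and 7.81 CPM in the low run and between 1.88 and 3.38 CPM in the high run, and its call (-1.12 ± 0.24, adjusted p = 0.0253) was lost without any 1 of fish 164 to 167. No gene was called among 33 interferon-response, 50 macrophage and neutrophil, 54 complement and plasma, 42 endothelial, 18 melanophore, 11 clock repressor and 12 clock activator genes. At an unadjusted p under 0.05 there were 5030 genes in all. The interferon-induced gene isg15 was at 60.8, 93.4, 22.0 and 18.6 CPM in the low run and at 50.4, 47.4, 59.5, 37.2 and 72.1 CPM in the high run. The proliferation marker mki67 was at 118 CPM in fish 190 and at 13.7 to 29.6 CPM in the other 8 fish. Over the 75 cell cycle genes the median was 0.47 with all fish, -0.29 without fish 190 and -0.56 without fish 190 and 192. The clock gene PER1 (ENSDARG00000012499) was at 55.4, 64.2, 58.0 and 56.0 CPM in the low run, at 82.7 CPM in fish 189 and at 32.4, 31.6, 24.6 and 32.2 CPM in fish 190 to 193. NR1D1, the clock repressor Rev-erb alpha, was at 13.3 CPM in fish 189 and at 3.35 to 5.90 CPM in fish 190 to 193, against 11.1 to 18.8 CPM in the low run (-1.27 ± 0.38, adjusted p = 0.0673). In both clock genes fish 189 stood apart from the other high-run fish, and the hour of sampling is not given in the sources used here. For a further PER1 identifier (ENSDARG00000056885) fish 189 was instead the lowest of the high run (2.05 log2 CPM). Without fish 189, of 18 clock output genes 3 were higher and 5 lower. Of 11 clock repressor genes 2 were higher and 1 lower. Over all genes 6.28% were higher and 8.44% lower in that fit.

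Set beside the other groups, the low run at 3.75 nM was the one that stood apart. ODC1 averaged 207 ± 70.8 CPM in it (SD, n = 4, with all 26 libraries scaled together) and between 21.2 and 38.0 CPM in the other 5 groups. HSPA5 averaged 858 ± 269.9 CPM there and 189 to 279.8 CPM in the others, MANF 124 ± 19.7 CPM against 20.9 to 36.0 CPM, and CLPP, a mitochondrial protease subunit, 55.0 ± 3.56 CPM against 24.6 to 31.7 CPM. krt17 averaged 1247 ± 173 CPM against 212 to 619 CPM, and trim63a 3.12 ± 0.434 CPM against 20.9 to 31.4 CPM. For each of these 6 genes the high run at 3.75 nM lay among the groups at 37.5 nM or close to them. krt17 was lower in the high runs at 37.5 nM as well. In 1-year fish it was at 365 to 519 CPM in the low run and 178 to 275 CPM in the high run. In 3-year fish it was at 322 to 793 CPM in the low run and 227 to 323 CPM in the high run. For krt4 the means of both runs stood apart: the low run averaged 8401 ± 989 CPM, above the 4086 to 5058 CPM of the groups at 37.5 nM, and the high run 3058 ± 157 CPM, below them. Single fish of the high run (2817 to 3218 CPM) overlapped those at 37.5 nM, where fish 180 was at 2557 CPM and fish 202 at 3153 CPM. The mean of the ribosome biogenesis list was 5.72 ± 0.14 log2 CPM in the low run at 3.75 nM and 4.62 to 4.87 in the other 5 groups, and that of the FoxO and fasting list 4.04 ± 0.07 against 4.67 to 4.97. The genes shown here were chosen with their values at 3.75 nM known, and the FoxO and fasting list was put together after those values were seen. These means are therefore a description.

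**Figure D5:**
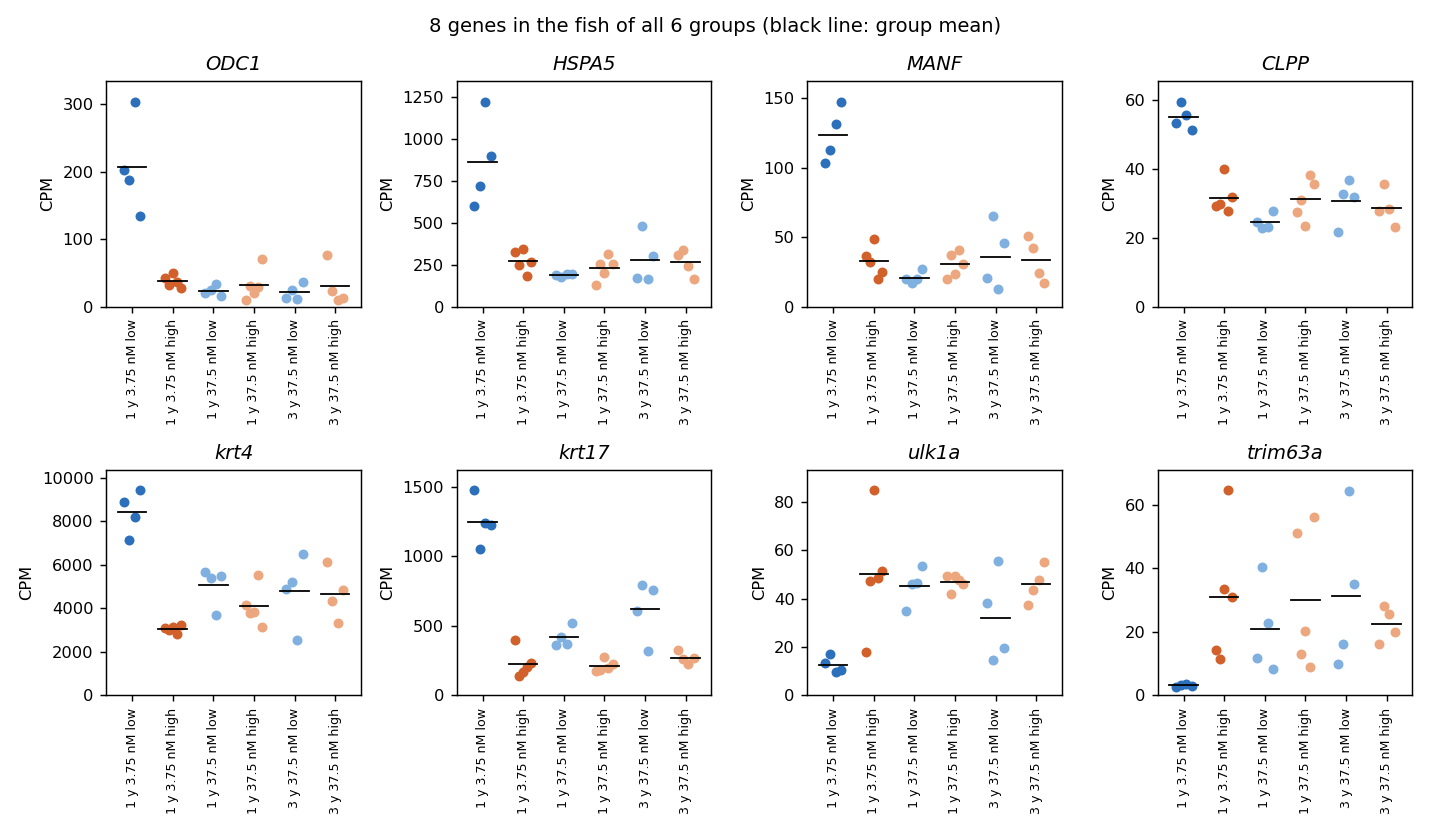
CPM of 8 genes in the 26 fish, 1 point per fish, by age (1 or 3 years), rotenone concentration (3.75 or 37.5 nM) and number run, with a black line at each group's mean. The low run at 3.75 nM (dark blue) is high for ODC1, HSPA5, MANF, CLPP, krt4 and krt17 and low for ulk1a and trim63a.

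The same held over the called genes. Of the 1029 genes lower in the high run, the low run at 3.75 nM had a mean above all 4 groups at 37.5 nM in 978 (95.0%), against 24.9% of all genes tested, and of the 552 higher genes it lay below all 4 in 471 (85.3%), against 27.3% of all genes. These low-run values also took part in choosing the genes, so the shares are a description. The high run at 3.75 nM lay within the range of those 4 groups in 661 of the 1029 (64.2%) and 364 of the 552 (65.9%), close to the 65.6% over all genes. A direct comparison of concentrations within each run, chosen after the data were seen, gave 3418 of 20482 genes (16.7%) between 3.75 and 37.5 nM in the 1-year low runs (4 against 4 fish), 8.78% higher and 7.9% lower at 3.75 nM. In the high runs (5 against 5 fish) it gave 4 genes (0.0195%, with 0.0146% higher and 0.00488% lower), with 1661 at an unadjusted p under 0.05, while DESeq2 gave 4030 and 432. The 4 genes, named after their values were seen, were NR1D1 (1.82 ± 0.32, higher at 3.75 nM), diabloa, si:ch211-132b12.7 and ahrra, a repressor of the aryl hydrocarbon receptor, which was lower (-1.87 ± 0.32). Without fish 190 or 193 the high-run count was 1 or 0 (934 and 1962 genes at an unadjusted p under 0.05), and no left-out fish of the low run at 3.75 nM took its count below 2407. Fish at 37.5 nM were not left out. The fish at the 2 concentrations come from separate deposited tables, and both runs at 3.75 nM stand in 1 table. Whether a table matches a batch is not stated in the labels.

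Number runs also exist at 37.5 nM. There the 1-year runs differed in 248 of 20482 genes (1.21%, with 0.62% higher and 0.591% lower) and the 3-year runs in 188 (0.918%, with 0.644% higher and 0.273% lower). Fitted on the fish of each group alone, the counts were 1513 of 19055 genes and 0 of 19031, the latter with 2204 genes at an unadjusted p under 0.05. Of the 1581 genes called at 3.75 nM, 39 were called in the same direction and 4 in the opposite direction in the 1-year runs at 37.5 nM. Over all 19191 genes tested at 3.75 nM these counts were 204 and 43. The same sign was seen there in 64.39% of the 1581, against 61.0% of all genes. The 2 sides differ in form, since the 1581 come from a fit of 9 fish and the 248 from a fit of 26 fish, in which the runs at 3.75 nM gave 3441. The overlap of the 1581 with the 1513 is not given here. The difference between the run contrasts at 3.75 and 37.5 nM in 1-year fish, tested directly, was called in 470 genes (2.29%, with 1.17% larger and 1.12% smaller at 3.75 nM), of which 319 were among the 1581. That count was 29 without fish 166 and 95, 131, 146 and 282 without fish 193, 167, 192 and 164, and 975 without fish 189. Against the 3-year runs it was 145 (0.708%, with 0.273% larger and 0.435% smaller), of which 100 were among the 1581. The run difference at 3.75 nM chose the 1581 genes and also enters both of these contrasts. The overlaps of 319 and 100 are therefore a description.

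Folding genes were among those whose run difference differed from that at 37.5 nM. In the ER list 9 of 35 genes were called for this difference, against 2.29% of all genes. HSPA5 fell by 1.67 ± 0.26 at 3.75 nM and was 0.29 ± 0.30 between the 1-year runs at 37.5 nM, a difference of -1.95 (adjusted p = 0.0275), and for MANF the difference was -2.46 (0.0270). In the mitochondrial import and folding list 10 of 44 were called, among them TSFM, a mitochondrial elongation factor (-2.19, adjusted p = 0.0190). In the autophagy list 7 of 61 were called, among them ulk1a (1.94, 0.0401), and in the ribosome biogenesis list 4 of 51. The import and autophagy lists were put together after the values at 3.75 nM were seen, and those values enter this difference. The counts of these lists are therefore a description. For krt4 the difference was -1.15 (0.0463) and for ODC1 -2.89 (0.0426). These calls were made with all fish. Over all genes the calls numbered 29 without fish 166 and 95 without fish 193, and the list counts in those fits are not given here.

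For the difference between the run contrasts at 3.75 and 37.5 nM, none of the 95 matrix genes was called. Of the 45 scale genes 1 was called (ALPL, alkaline phosphatase). The scale count was close to the 2.29% of all genes, and the matrix count was below that share. In the 1-year runs at 37.5 nM, 7 of the 95 matrix and 4 of the 45 scale genes were higher in the high run, against 0.62% of all genes in that contrast. LEF1 rose there by 1.34 ± 0.32 (adjusted p = 0.0418) and by 1.51 ± 0.28 at 3.75 nM, and BMP4, a bone-inducing signal, by 1.63 ± 0.40 (0.0469) and by 1.24 ± 0.27 (0.0253, lost without any of fish 164, 165, 166, 167 or 193, up to 0.0843). The difference between the run contrasts was 0.18 for LEF1 and -0.38 for BMP4 (adjusted p = 0.879 and 0.776), which does not show that the gains are equal. In ionocytes, atp1a1a.2 was lower by 1.96 ± 0.60 between the 1-year runs at 37.5 nM without passing (value -1.96, adjusted p = 0.0775). The difference between its run contrasts, 3.75 nM minus 37.5 nM, was -3.05 (adjusted p = 0.0579).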

How the data were processed

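Per the labels' protocols, libraries were made from total RNA with Illumina's TruSeq kit, and the build GRCz10 is named beside featureCounts 1.4.6-p4, STAR 2.4.1d and CASAVA 1.8.2 per the submitters' processing notes. What each tool did is not stated there. The authors deposited whole-number counts per gene (32105 Ensembl identifiers), unnormalized, in 1 table for 3.75 nM and another for 37.5 nM. Their RPKM tables were not used. Groups follow the labels and the number in each title, and the 9 fish and the gene lists were chosen with earlier results of these data known. Each fish is 1 replicate, so p-values reflect variation among fish.

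Counts were filtered (filterByExpr), scaled by TMM and tested with edgeR 4.0.16 (robust glmQLFit, glmQLFTest) in R 4.3.3, over 9 fish for the runs at 3.75 nM and over 26 fish for other contrasts, with Benjamini-Hochberg adjustment at 0.05. The standard error is the log2 fold change over the square root of F. The biological coefficient of variation was 0.415. CPM used the scaled library sizes, and list means used log2 CPM. The test was checked on simulated counts.

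Named genes were those called whose average log2 CPM was at least 2, with a symbol other than a clone name and runs that do not overlap (the 10 largest changes each way), the 2 called members of smallest p in each of 39 lists, and reference genes (hbba1 had no matching identifier). Values of other list members were chosen after they were seen, as were 4 of the lists and the comparison of concentrations within runs. Symbols are those of the reference table, 26269 of the identifiers have one, and 4301 share one. Identifiers are given for shared symbols, whose reads may be split between copies. Alternatives were RLE and total-count scaling, other filters, DESeq2 1.42.0, limma 3.58.1 (voom with quality weights), a muscle term, all 26 fish, and leaving out fish.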

Additional observations from a re-analysis of the deposited data

Results flagged for a closer look

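Several genes had a single fish at 3.75 nM far from the others of its run by Dixon's criterion, which chance alone meets in about 1 of 20 groups, and 192 groups were examined. Values are log2 CPM. Fish 189 was lowest of the high run for PDK2 (4.10), cyp2k18 (-0.59), CRY1 (ENSDARG00000011583, 3.70), PER1 (ENSDARG00000056885, 2.05) and FKBP5 (6.08), and highest for CCND1 (5.26) and PER1 (ENSDARG00000012499, 6.37). Fish 192 was lowest for krt1-19d (6.52) and fish 190 highest for mki67 (6.89). Fish 166 was highest of the low run for actc1b (13.26), a muscle actin gene.

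The run difference at 3.75 nM differed from that of the 1-year fish at 37.5 nM, by edgeR's test of the difference itself, for col9a1b (3.94 on the log2 scale), ODC1 (-2.89), CYP1A1 (-2.68), DNAJB11 (-1.76), krt17 (-1.46), krt4 (-1.15), CLPP (-1.13), UROD (-0.95) and XPC (-0.84). CYP1A1 was not called between the runs at 3.75 nM and rose by 3.05 ± 0.51 in the high run at 37.5 nM (adjusted p = 0.00993). The run difference differed from that of the 3-year fish for trim63a (3.79), AGR2 (-2.33), krt1-19d (-2.12) and krt4 (-1.42).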

How the results depend on the processing

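No paired analysis was possible because fish numbers are not shared between groups. The count of genes changed between the runs at 3.75 nM (1581, with 552 higher and 1029 lower) was 3313 (1512 and 1801) with DESeq2, 2941 (1173 and 1768) with limma voom, 2484 (965 higher) with a term for the muscle list, 3441 (1737 and 1704) with all 26 fish in 1 fit and 548 (199 and 349) without fish 190 and 192. With no filter on low counts 361 genes were higher. Leaving out 1 fish gave 190.0 to 2793 genes, 38 to 1192 higher and 152 to 1601 lower. The cause of these shifts was not tested.

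For the 1-year runs at 37.5 nM, RLE scaling gave 196 lower genes, and the fish of that group alone gave 1513 (709 and 804). For the 3-year runs, their own fish gave 0, with 0 higher and 0 lower (edgeR, 2204 at an unadjusted p under 0.05). The difference of run contrasts gave 1140 genes (479 and 661) with 18 fish, and 29 to 975 (20 to 453 and 9 to 522) when 1 fish was left out. Between concentrations, the low-run count of lower genes was 1011 to 1477 when 1 fish was left out. The high-run count of 4 was 432 (410.0 and 22) with DESeq2, 0 (0 and 0) with 18 fish (edgeR, 1776 at an unadjusted p under 0.05), and 0 to 4 (0 to 3 and 0 to 2) when 1 fish was left out.

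Some genes that were not called changed sign. PER1 (ENSDARG00000056885) was at -0.013 and mki67 at -0.259 without fish 190 and 192, and CYP1A1 at -0.0760 with voom. With 1 fish left out, mki67 ranged from -0.185 (without fish 190) to 1.09, CYP1A1 from -0.289 (without 191) to 0.555, actc1b from -1.22 to 0.528 (without 166), isg15 from -0.120 (without 167; -0.092 without 166) to 0.655 and NDUFS1 from -0.075 (without 192) to 0.315. No called gene among those named changed sign.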
